A study of Danio rerio with 6 samples.

Results

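The axon guidance receptors and ligands of zebrafish embryos carrying human EWS-FLI1, the fusion oncogene of Ewing sarcoma, were examined on Affymetrix arrays. The members were all probe sets annotated to exactly 1 gene whose symbol names an Eph receptor, ephrin, semaphorin, plexin, neuropilin, Robo receptor, Slit, unc5-type gene, netrin or dcc. The rule found 47 probe sets of 40 genes, among 15502 probe sets tested and 8793 genes in all. A RefSeq gene table listed 103 zebrafish genes with such symbols, so 40 of 103 could be followed. No probe set of dcc and no netrin receptor of the unc5 family met the rule. The only symbol that matched the unc5 pattern was unc50, which encodes a Golgi protein and is not a guidance receptor.

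There were 3 EWS-FLI1 arrays, from embryos of the line Tg(HSP:EWS-FLI1), in which a heat shock promoter drives the human fusion, and 3 control arrays from wild-type embryos of the AB strain. Embryos of both groups received a heat shock of 39 °C lasting 30 min at 50% epiboly and recovered for 2 h at 28.5 °C. Each array read RNA of 40 pooled embryos. Expression of the fusion itself, which embryos of a clutch carried it and the number of founder fish behind the line were not examined here. The labels call the arrays biological replicates without naming clutches, so p-values measure the spread between pools.

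Guidance receptors steer growing axons by attracting or repelling the growth cone. Ephrins act on Eph receptors of neighbouring cells, semaphorins on plexins and neuropilins, Slits on Robo receptors and netrins on Dcc and Unc5 receptors. At gastrulation no axons have yet grown, and the same proteins are known to direct cell migration, tissue boundaries and, slightly later, the patterning of vessels.

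All values are log2 RMA values, and a difference is EWS-FLI1 minus control, so that 1 equals a doubling. RMA is a normalization that sets all arrays to one distribution. The labelled tissue was borne out by gastrula genes well above background: the Brachyury gene tbxta averaged 8.54 ± 0.18 in EWS-FLI1 and 8.0 ± 0.03 in control embryos, and the organizer gene gsc averaged 7.54 ± 0.13 in EWS-FLI1 and 8.45 ± 0.18 in control embryos (SD, n = 3 each). Correlations across probe sets were 0.998 within EWS-FLI1 arrays, 0.991 to 0.994 within control arrays and 0.982 to 0.988 between groups. A sign of RNA integrity, the 3′ less the 5′ value of the GAPDH control probe sets, was 1.1 to 1.28 on EWS-FLI1 arrays and 0.69 to 0.92 on control arrays. The same value of the acta1 control probe sets went the other way, from -0.50 to -0.36 on EWS-FLI1 arrays and from -0.33 to 0.20 on control arrays. The part of RNA integrity in the results was not tested. A background reference of 4.20 was the 95th percentile of 44 control probe sets for bacterial and tag sequences. Of the 47 guidance probe sets, 16 lay at or under it in each group, and a change of those transcripts could not be read from them.

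Of the 47 guidance probe sets, 12 passed the test (limma, adjusted p under 0.05), or 25.5%, against 11.8% of all tested probe sets. There were 3 that rose (5.38% of all tested probe sets rose) and 9 that fell (6.46% of all fell). In whole embryos, fewer cells of a type and less RNA per cell cannot be told apart. The 3 raised genes were plxnd1, robo1 and sema3aa. The 8 fallen genes were the ephrin genes efnb2b (by both of its probe sets), efnb2a and efna5a, the Eph receptor genes epha2a, ephb3a and epha4a, the co-receptor gene nrp1a and robo3. The rises of plxnd1 and robo1 exceeded 4-fold, which 0.393% of all tested probe sets did, and ranked 56 and 65 by size of difference among all of them. The falls were smaller, from 0.359 to 0.655 times the control level. The median difference was -0.08 over the members and 0.00 over all tested probe sets. EWS-FLI1 and control arrays were free of overlap at 20 of the 47 guidance probe sets, against 29% of all tested probe sets. Of the 20, 6 were higher and 14 lower, where 14.1% of all tested probe sets were higher without overlap and 14.8% lower.

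**Figure D1:**
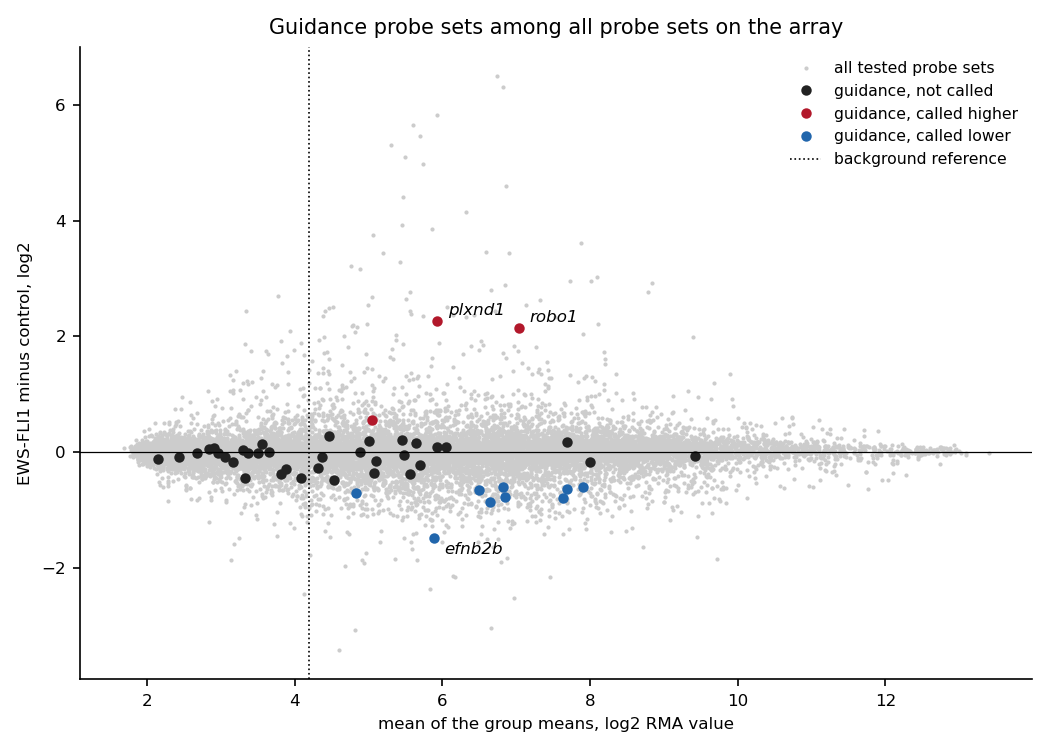
Difference between EWS-FLI1 and control embryos (vertical axis, log2) against the mean of the 2 group means (horizontal axis, log2 RMA value) for all 15502 tested probe sets (grey) and the 47 guidance probe sets (coloured by call). plxnd1 and robo1 stand at differences of 2.26 and 2.14, the other called members lie between -1.48 and 0.55, and 16 members lie at or under the background reference in both groups.

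Among semaphorin receptors, plexin D1 rose strongly while neuropilin 1 fell. plxnd1 encodes the plexin that receives Sema3E and restrains vessel sprouting. It read 7.34, 6.92 and 6.92 on the EWS-FLI1 arrays, against 4.97, 4.82 and 4.61 on the control arrays. The lowest EWS-FLI1 value lay 1.95 above the highest control value.

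plxnd1 averaged 7.06 ± 0.24 in EWS-FLI1 and 4.80 ± 0.18 in control embryos (SD, n = 3 each), a difference of 2.26 (SE 0.14, limma adjusted p = 3.6e-05) or 4.79-fold. Of 14 plexin genes in the RefSeq gene table, 3 had a member probe set. The B-type plexins among these 3 did not pass the test. plxnb2a.3 differed by 0.21 (95% confidence interval 0.01 to 0.41, adjusted p = 0.187) and plxnb2a.1 by 0.17 (-0.04 to 0.38, adjusted p = 0.326).

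Neuropilins are the ligand-binding partners of plexins for most class 3 semaphorins and also bind VEGF. nrp1a read 6.30, 6.33 and 5.89 on EWS-FLI1 arrays, against 6.83, 6.94 and 6.71 on control arrays. The groups did not overlap, and EWS-FLI1 replicate 3 was the lowest. nrp1a fell by 0.65 (SE 0.13, adjusted p = 0.0138), to 0.636 times the control level. nrp2b was not called, at 5.71 ± 0.09 in EWS-FLI1 and 5.56 ± 0.06 in control embryos (difference 0.15, 95% confidence interval -0.04 to 0.35).

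Of the 10 semaphorin genes, 1 rose and 9 were not called (10% called), close to the 11.8% of all tested probe sets that were called. sema3aa, which encodes a secreted repellent of the Sema3A type, read 5.31, 5.41 and 5.24 on EWS-FLI1 arrays, against 4.81, 4.61 and 4.89 on control arrays. All EWS-FLI1 values were higher than all control values. The rise was 0.55 (SE 0.10, adjusted p = 0.00929), or 1.46-fold.

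Its paralog sema3ab differed by 0.00, with a 95% confidence interval from -0.28 to 0.29 and both means within the background reference. sema3e, the gene of the best-known plexin D1 ligand, was at 3.31 ± 0.10 in EWS-FLI1 and 3.27 ± 0.06 in control embryos (SD, n = 3 each), also within that reference in both groups. The same held for sema3bl, sema3d, sema3h, sema4ab and sema5a, whose differences lay between -0.11 and 0.06. The 2 remaining semaphorins are membrane-bound: sema4e differed by 0.20 (adjusted p = 0.223) without overlap of the groups, and sema6ca by -0.23 (adjusted p = 0.207).

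The Robo receptors of Slit diverged. robo1, whose product repels axons from Slit at the midline, read 8.40, 7.90 and 8.04 on EWS-FLI1 arrays, against 5.95, 5.75 and 6.21 on control arrays. The lowest EWS-FLI1 array lay 1.69 above the highest control array. robo1 rose by 2.14 (SE 0.16, adjusted p = 9.0e-05), or 4.42-fold.

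robo3, a divergent member of the family, is known for guiding commissural axons. It read 7.37, 7.40 and 7.32 on EWS-FLI1 arrays, against 8.02, 7.96 and 8.02 on control arrays. The replicates were tightly grouped and did not overlap. robo3 fell by 0.64 (SE 0.08, adjusted p = 0.00156), to 0.643 times the control level. robo2, disrupted in the retinal pathfinding mutant astray, was not called. It read 5.22, 4.76 and 4.71 in EWS-FLI1 and 5.13, 5.16 and 5.46 in control embryos, overlapping, with a difference of -0.35 (95% confidence interval -0.70 to -0.01, adjusted p = 0.196).

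Neither Slit gene, encoding the secreted Robo ligands, was called. slit2 read 4.35, 4.32 and 4.22 on EWS-FLI1 arrays, against 4.75, 4.26 and 5.30 on control arrays. The control values were the scattered ones, with an SD of 0.52 against 0.07 in EWS-FLI1. The difference was -0.47 (95% confidence interval -0.97 to 0.03, adjusted p = 0.232). Without control replicate 2 it was -0.73 and passed (adjusted p = 0.0143). slit3 differed by 0.27 (adjusted p = 0.102) and its groups did not overlap.

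**Figure D2:**
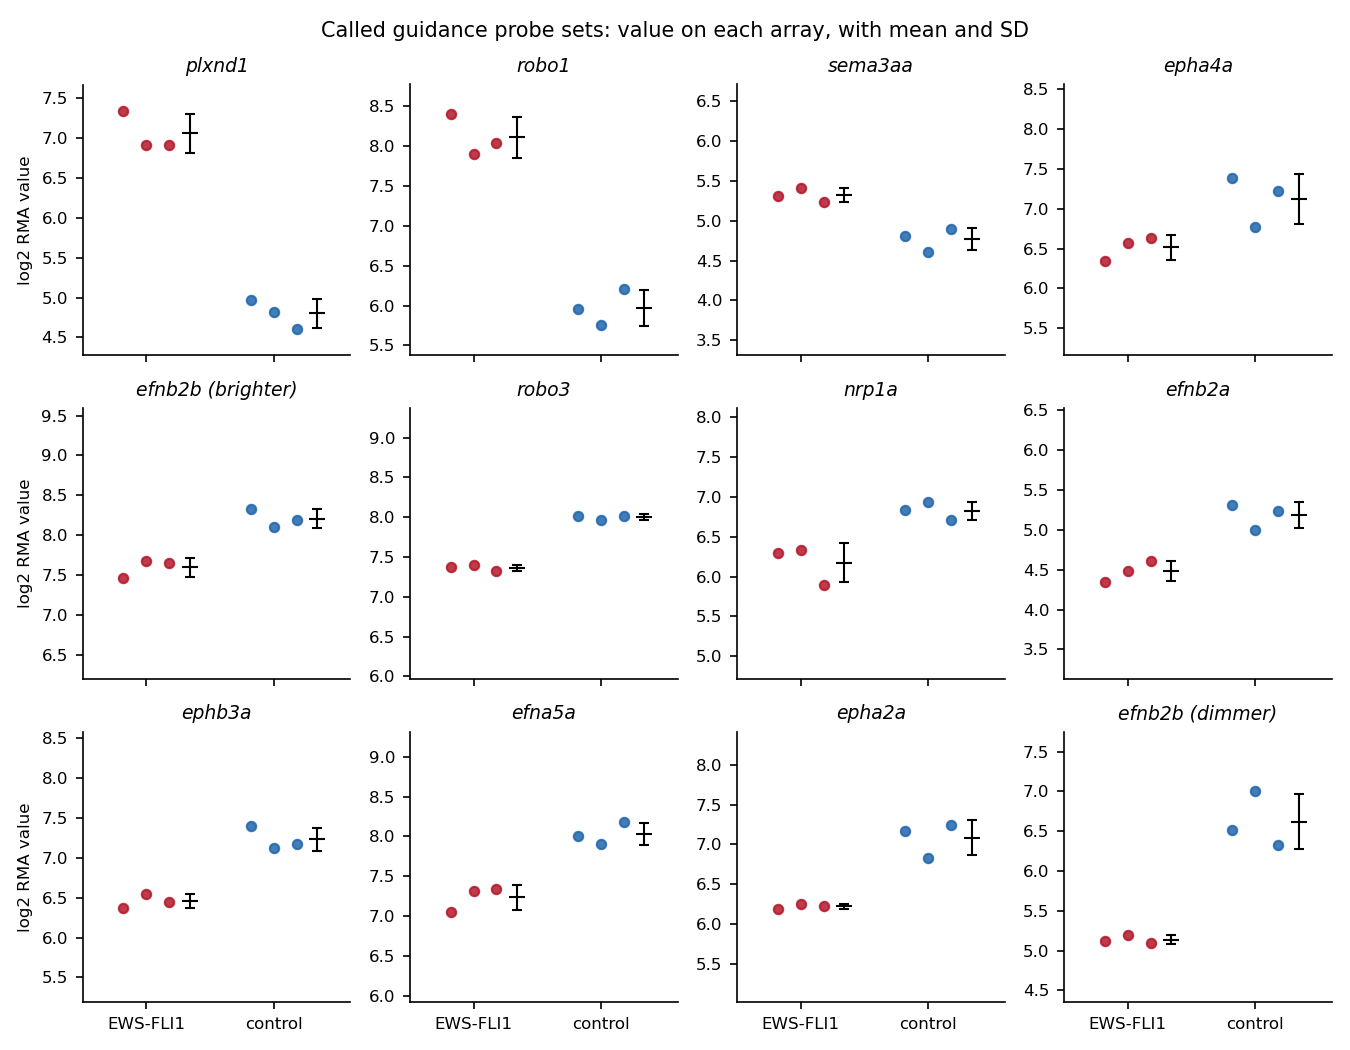
Log2 RMA value of the 12 called guidance probe sets on each array, EWS-FLI1 (red) left and control (blue) right, with the mean and SD of 3 arrays beside the points; every panel spans the same range of log2 units. No panel shows overlap between the groups, and the rises of plxnd1 (mean 7.06 in EWS-FLI1, 4.80 in control) and robo1 (mean 8.11 in EWS-FLI1, 5.97 in control) exceed every fall shown. The panels were chosen by the test on these same values, so the lack of overlap adds no support.

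In the Eph and ephrin families every called member fell. Of 22 probe sets of 17 genes, 7 fell, 0 rose and 15 were not called by limma (31.8% called). Of all tested probe sets, 11.8% were called, with 6.46% lower and 5.38% higher. At an unadjusted p under 0.05, 10 of the 22 were lower and 0 higher, where 13.1% of all tested probe sets were lower and 11.4% higher. The median difference was -0.33 over the 12 ephrin probe sets and -0.12 over the 10 Eph receptor probe sets. Of the 22, 17 differences were negative, where 7835 of all 15502 were. At 7 of the 22 both means were at or under the background reference.

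The B-type ephrins are transmembrane ligands that signal in both directions and keep cell populations apart at somite and hindbrain borders. efnb2b fell at both of its probe sets. The dimmer one read 5.12, 5.20 and 5.10 on EWS-FLI1 arrays, against 6.52, 7.0 and 6.33 on control arrays. The EWS-FLI1 arrays were nearly identical, and the control arrays were spread but all higher.

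That difference was -1.48 (SE 0.16, adjusted p = 7.5e-04), or 0.359 times the control level. The brighter one read 7.46, 7.68 and 7.65 on EWS-FLI1 arrays, against 8.33, 8.10 and 8.19 on control arrays. It fell by 0.61 (SE 0.10, adjusted p = 0.00565). The 2 probe sets gave one direction and unequal sizes.

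The paralog efnb2a, known as an arterial and somite-border gene, read 4.35, 4.49 and 4.61 on EWS-FLI1 arrays, against 5.31, 5.0 and 5.24 on control arrays. All EWS-FLI1 values were lower. efnb2a fell by 0.70 (SE 0.11, adjusted p = 0.00489). The other ephrin-B genes were not called: efnb3b differed by 0.10 (adjusted p = 0.766), and the efnb1 probe sets by -0.15 and, within the background reference, -0.28 (adjusted p = 0.476 and 0.293).

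The A-type ephrins are anchored to the membrane by a lipid and are known for mapping retinal axons onto the tectum. efna5a had 3 probe sets that disagreed. The first read 7.05, 7.31 and 7.34 on EWS-FLI1 arrays, against 8.01, 7.91 and 8.18 on control arrays, a fall by 0.80 (SE 0.11, adjusted p = 0.00282). A second, within the background reference, differed by -0.38 (adjusted p = 0.132), and the third, above it, by 0.01 (95% confidence interval -0.23 to 0.25). The fall of efna5a therefore rests on 1 of its 3 probe sets. efna3b differed by -0.45 (adjusted p = 0.125) without overlap, with an EWS-FLI1 mean of 3.86, within the background reference. Nor were efna2a (0.09) and efna5b (-0.02, both means within that reference) called.

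Among Eph receptors, epha2a, whose product is a receptor of A-type ephrins, had the largest difference. It read 6.19, 6.25 and 6.22 on EWS-FLI1 arrays, against 7.17, 6.83 and 7.24 on control arrays. The EWS-FLI1 arrays agreed within 0.06. epha2a fell by 0.86 (SE 0.12, adjusted p = 0.0023), to 0.551 times the control level.

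ephb3a, a receptor gene for B-type ephrins, read 6.37, 6.55 and 6.45 on EWS-FLI1 arrays, against 7.40, 7.12 and 7.18 on control arrays. The groups were clear of each other. ephb3a fell by 0.78 (SE 0.10, adjusted p = 0.00205).

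epha4a marks rhombomeres of the hindbrain, where it sharpens their borders. It read 6.34, 6.57 and 6.63 on EWS-FLI1 arrays, against 7.38, 6.77 and 7.22 on control arrays. Control replicate 2 lay only 0.14 above the highest EWS-FLI1 array. The fall was 0.61 (SE 0.16, adjusted p = 0.0386), and it was lost when any 1 EWS-FLI1 array or control replicate 1 or 3 was left out (highest adjusted p = 0.161). The second probe set of epha4a, within the background reference, differed by -0.17 (adjusted p = 0.577).

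The remaining Eph receptors were not called. ephb4b, of a family known from veins, read 5.18, 5.40 and 5.50 in EWS-FLI1 and 5.79, 5.57 and 5.88 in control embryos. The groups did not overlap, and the difference was -0.39 (95% confidence interval -0.66 to -0.12, adjusted p = 0.0723), which passed without control replicate 2 (-0.48, adjusted p = 0.0273). Its paralog ephb4a differed by -0.06 (95% confidence interval -0.30 to 0.18). epha4b, epha4l and epha6 lay within the background reference, with differences from -0.02 to 0.15.

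ephb2b differed by -0.06 (95% confidence interval -0.25 to 0.13), at 9.39 ± 0.07 in EWS-FLI1 and 9.45 ± 0.02 in control embryos. The gene table lists tpx2, a mitotic spindle gene, and clones shared with tpx2 among the synonyms of ephb2b, so which of the 2 transcripts this probe set reads is not settled.

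The netrins, secreted cues that attract commissural axons at the midline, were called by limma at 0 of 4 probe sets, where 2 had an unadjusted p under 0.05, as had 24.5% of all tested probe sets. All 4 differences were negative, where 7835 of all 15502 were, and 3 of the 4 probe sets were of ntn1a. Both means were at or under the background reference at 2 of the 4. ntn1a differed by -0.45 (adjusted p = 0.0731), -0.27 (adjusted p = 0.111) and -0.08 (adjusted p = 0.786) at its 3 probe sets. The first 2 had no overlap between groups, as had 29% of all tested probe sets. The first passed without control replicate 2 (-0.53, adjusted p = 0.0437), but its means were at or under the background reference. At the second the EWS-FLI1 mean (4.18) was under that reference and the control mean (4.45) above it. ntn1b differed by -0.08 (95% confidence interval -0.48 to 0.32). unc50 differed by -0.17 (adjusted p = 0.345).

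**Figure D3:**
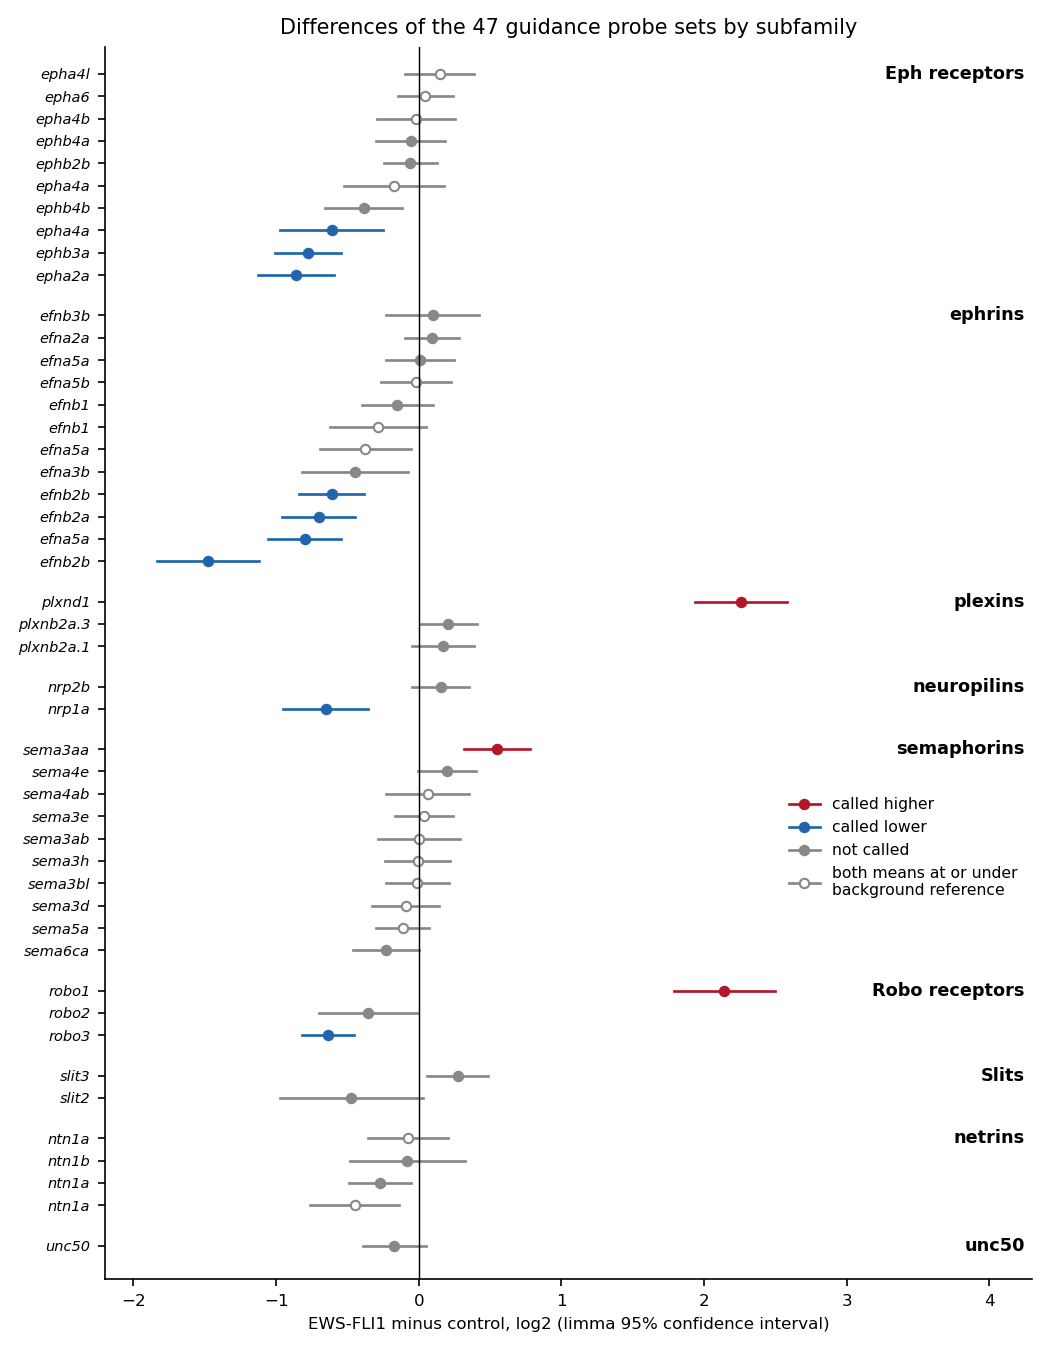
EWS-FLI1 minus control difference of each of the 47 guidance probe sets (points, log2) with limma's unadjusted 95% confidence interval (lines), grouped by subfamily; red points rose, blue points fell, grey points were not called and open points had both means within the background reference. The Eph and ephrin members called lie between -1.48 and -0.61, whereas plexins and Robo receptors hold the rises of 2.26 and 2.14.

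Of the 35 uncalled guidance probe sets, 27 had 95% confidence intervals inside ± 0.5, and 8 had an unadjusted p under 0.05. Called ones included, 5 of the 47 were higher and 15 lower at that p. Of all tested probe sets, 11.4% were higher and 13.1% lower. The share of all intervals inside ± 0.5 was not computed. No uncalled member reached a difference of 0.5. At 7 of the 9 fallen probe sets control replicate 2 was the lowest control array, and so the closest to the EWS-FLI1 arrays. It was also the lowest control array at 2 of the 3 raised probe sets, and there the farthest from the EWS-FLI1 arrays. The SD between arrays had a median of 0.112 in EWS-FLI1 and 0.138 in control embryos over the members. By role, 5 of 28 ligand probe sets were called (17.9%, 1 rose and 4 fell). Of 18 receptor probe sets, 7 were called (38.9%, 2 rose and 5 fell), against 11.8% of all tested probe sets. Both means were at or under the background reference at 12 ligand and 4 receptor probe sets, none of them called. With a mean above it, 5 of 16 ligand and 7 of 14 receptor probe sets were called, against 16.4% of all such probe sets. The difference between these shares was not tested.

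Intracellular partners of the guidance receptors moved at few members. Of 40 measured genes of 80 names, 2 rose, 4 fell and 34 were not called (15.0% called, against 11.8% of all tested probe sets), with a median of 0.00. With a mean above the background reference, 5 of 29 were called, against 16.4% of all such probe sets. Among the called, nck1a was above it in EWS-FLI1 embryos only, and gipc2, which fell, in control embryos only. Their place in that count therefore depends on their change. nck1a, an adaptor that couples guidance receptors to actin, rose by 1.36 (adjusted p = 3.1e-04) from a control mean within the background reference. The kinase gene pak1 fell by 0.70 (adjusted p = 0.0293), the GTPase gene rras, whose product plexins inactivate, fell by 0.56 (adjusted p = 0.0243), and rnd3a, an antagonist of RhoA, rose by 0.52 (adjusted p = 0.0321). Each of these last 3 lost its call when any 1 EWS-FLI1 array or control replicate 1 was left out, as did pak1 without control replicate 3 and rnd3a without control replicate 2 (highest adjusted p = 0.128).

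Guidance cues, receptors and adhesion co-receptors outside the symbol patterns mostly fell where they were called. Of 28 measured genes of 55 names, 9 fell, 1 rose and 18 were not called, with a median of -0.09. The share called was 35.7%, against 11.8% of all tested probe sets. With a mean above the background reference, 10 of 17 were called, against 16.4% of all such probe sets. alcama, an adhesion protein of retinal axons, changed by -1.42 (adjusted p = 0.0187) and lost its call when any 1 EWS-FLI1 array or control replicate 1 was left out (highest adjusted p = 0.0851). cxcr4b, the chemokine receptor that steers the lateral line primordium, fell by 0.94 (adjusted p = 0.00415). The receptor phosphatase gene ptprfb fell by 0.84 (adjusted p = 0.00274) and cxcr4a by 0.84 (adjusted p = 0.00247).

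Guidance genes are used by several tissues. Blood and endothelial markers stood beside the rise of plxnd1. Of 11 measured, 5 rose and 0 fell by limma (45.5% called, against 11.8% of all tested probe sets). At an unadjusted p under 0.05, 7 were higher and 0 lower, where 11.4% of all tested probe sets were higher and 13.1% lower. The raised genes included lmo2 (3.44), tie1 (1.37), fli1rs (1.11) and kdrl (0.90), all from control means within the background reference. The mean level of the 11 genes was 5.13 to 5.22 on EWS-FLI1 arrays and 4.34 to 4.56 on control arrays, and includes the rise of lmo2. All 5 called genes were above the background reference in EWS-FLI1 embryos only, so they met that limit through their rise. hhex (0.50, limma adjusted p = 0.0588), gata2a (-0.10) and hbae3 (-0.29), above it in both groups, were not called. Of the 11 differences, 7 were positive and 4 negative, so the rise was not shared by every marker. tal1 stayed under the background reference in each group (2.06 ± 0.20 in EWS-FLI1 and 2.06 ± 0.15 in control embryos). The part of blood and endothelium in the rise of plxnd1 was not tested.

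Neural plate markers moved beside the fallen members. Of 27 measured neural plate and early neuron genes, 16 fell and 2 rose (66.7% called), with a median of -0.64. Of all tested probe sets, 11.8% were called, with 5.38% higher and 6.46% lower. With a mean above the background reference, 17 of 24 neural genes were called, against 16.4% of all such probe sets. The mean level of the 27 genes was 6.24 to 6.39 on EWS-FLI1 arrays and 6.72 to 6.98 on control arrays. The largest called differences were those of stmn4 (-2.45), egr2b (2.37), pax6a (-1.74) and rx3 (-1.33). The EWS-FLI1 means of stmn4 and pax6a were within the background reference, so both were counted above it through control embryos alone. pax6a lost its call when any 1 EWS-FLI1 array was left out, and egr2b without EWS-FLI1 replicate 1. The neuronal gene elavl3 was not called, at 5.02 ± 0.14 in EWS-FLI1 and 5.15 ± 0.06 in control embryos. elavl4 stayed under the background reference in each group. Of 18 mesoderm, organizer and endoderm genes, 7 fell and 1 rose (44.4% called). Their mean level was 7.27 to 7.41 on EWS-FLI1 and 7.53 to 7.88 on control arrays. Of 9 neural crest genes, 4 fell and 0 rose by limma (44.4% called). At an unadjusted p under 0.05, 5 were lower and 0 higher, where 13.1% of all tested probe sets were lower and 11.4% higher. The mean level of these 9 was 5.34 to 5.57 on EWS-FLI1 and 6.0 to 6.25 on control arrays. The crest genes called were foxd3 (-1.42), twist1a (-0.91), tfap2a (-0.88) and snai2 (-0.81). Those not called were sox9b (-1.26), dlx2a (-0.28), sox10 (-0.18), snai1b (-0.05) and crestin (0.10). The sox10 means, 3.68 in EWS-FLI1 and 3.86 in control embryos, did not reach the background reference. Of 13 enveloping layer genes, 2 rose and 2 fell (30.8% called), with a median of -0.05 and 7 negative differences. Their mean level of 8.48 to 8.63 on EWS-FLI1 and 8.18 to 8.24 on control arrays includes the rises of krt94 (3.86) and krt18b (2.51), each with a control mean under that reference. Of 8 yolk syncytial layer genes, 2 fell (25% called, mean level 6.40 to 6.49 on EWS-FLI1 and 6.68 to 6.73 on control arrays). That mean level includes the 2 falls, of the fibronectin genes fn1a (-0.59) and fn1b (-0.80). hnf4a (-0.50), gata6 (-0.20) and apobb.1 (0.17) were not called. The part of these tissues in the falls of Eph receptors, ephrins, nrp1a and robo3 was not tested.

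**Figure D4:**
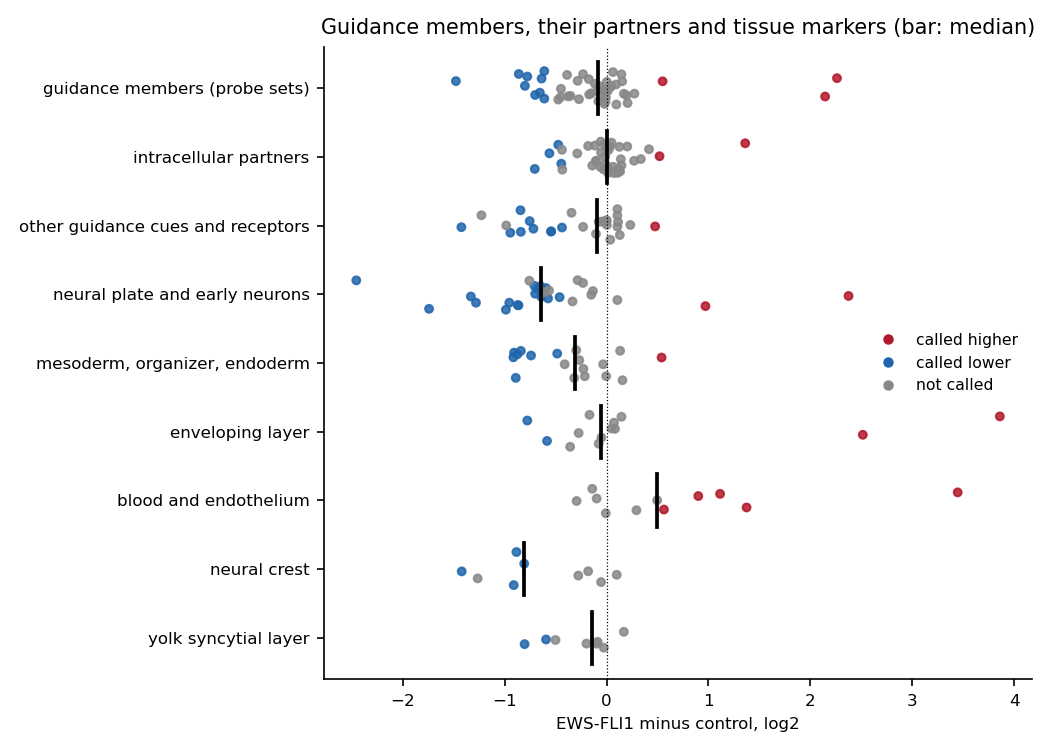
EWS-FLI1 minus control difference (horizontal axis, log2) of the 47 guidance probe sets, of the guidance partner lists and of the tissue marker lists (1 probe set per gene in the lists), coloured by call, with a bar at each median. The medians are -0.08 for the guidance members, 0.00 for intracellular partners, -0.64 for neural plate and early neuron genes and 0.50 for blood and endothelium.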

How the data were processed

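The authors deposited 1 log2 value for each probe set on each array, computed with RMA (affy package, R 2.2.0), per the submitters' processing notes. The log base is not given in the sources used here and was inferred from the range, 1.58 to 13.46. Quantile normalization within RMA makes a difference relative to the whole array, and differences of dim probe sets are compressed. Arrays carry no read depth, and 3 arrays per group limit the precision.

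The table held 15617 probe sets, of which the 115 control sets of the manufacturer were not tested. By GEO's platform annotation, 10795 of the tested sets had 1 gene, 135 had several and 4572 were unlisted. All 40 member genes matched a RefSeq gene table (assembly GRCz12tu) by Entrez identifier and kept their symbols. That table served for names and gene order only.

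The test was limma 3.58.1 (R 4.3.3; lmFit and eBayes on 2 group means, two-sided), with Benjamini-Hochberg adjustment over all 15502 probe sets. No set test was run. Values on every array are given for called members and for uncalled members differing by 0.5 or more, of which there were none. Those of robo2, slit2 and ephb4b were added after their values were seen. Gene lists used, for each gene, its probe set of highest mean, with up to 4 called genes named. The lists shared genes. cxcr4a was counted among the other guidance genes and among the mesoderm, organizer and endoderm genes. ncam1a, not called, was counted among the other guidance genes and among the neural genes. Members and lists were chosen with earlier results of these data known. Tested on simulated data (15502 probe sets, 200 of them changed), the test recovered 58.2% of the log2 changes sized 0.5 and 100% of those sized 1, and 12 of 184 calls were false. The simulation gave each probe set the same normal spread in both groups. In the data 1835 probe sets were called, and the median SD was 0.0917 in EWS-FLI1 and 0.135 in control embryos. The simulated rates therefore need not hold for these data.

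The labels do not say whether same-numbered arrays were paired. Deviations from the group means correlated at -0.0822, -0.0992 and -0.0761 between same-numbered arrays. Between the other pairs the correlations were -0.00304 to 0.0774. Deviations within a group cancel out, so these correlations depend on one another. Those between same-numbered arrays were the lowest, and whether arrays shared a clutch or day was not tested. The labels give no batch. Alternatives were a replicate block, leaving out each array, leaving out the dimmest 30% of probe sets, 2 other scalings, trended and robust priors, array weights, an adjusted p under 0.01 and 1 probe set per gene. Figures used matplotlib 3.10.9 and Python 3.11.15.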

Additional observations from a re-analysis of the deposited data

How the results depend on the processing

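The 3 rises were called in every alternative listed above that gave a value. The count of falls, 9, was 8 with the replicate block, 7 at an adjusted p under 0.01, 8 with 1 probe set per gene, and 8 to 12 when each array was left out. Of the 12 called probe sets, 11 kept their call in each of up to 14 alternatives at the 0.05 threshold. The exception was epha4a (adjusted p = 0.0539 with the replicate block), and at 0.01 nrp1a lost its call too. None of the 12 changed sign. The closest to the threshold among the kept calls was sema3aa (highest adjusted p = 0.0477). Without control replicate 2, ephb4b, slit2 and 1 probe set of ntn1a were gained. The median of the members was -0.142 to -0.0583 when each array was left out and -0.20 without dim probe sets, which removes members near 0. Counts excluding unc50, or unc50 and ephb2b, chosen after seeing the data, were 3 and 9. Over all probe sets, 834 rose and 1001 fell, 415 and 411 at an adjusted p under 0.01, and 450 to 1023 and 433 to 1286 when each array was left out. Whether the replicate numbers mark pairs is not known, and the block gave 705 and 871. Signal near background limits the 16 members at or under the reference in both groups.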

Other observations

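The gene table places robo1 beside robo2, and plxnd1 beside exorh and ift122. None of these 3 neighbours was called (robo2 -0.35, exorh -0.03, ift122 0.06). Within 2 protein-coding genes on either side of the 11 called guidance genes, 11 of 44 neighbours had a probe set of 1 gene, of which 3 rose, 0 fell (1 lower at an unadjusted p under 0.05) and 8 were not called by limma, where 5.38% of all tested probe sets rose. The 3 were pls1, an actin-bundling gene near ephb3a, by 0.95 (limma adjusted p = 0.00523), zgc:103482 near efna5a by 0.84 (limma adjusted p = 0.00309) and the interferon-response gene mxa near efnb2b by 0.77 (limma adjusted p = 0.0318). mxa lost its call when any 1 EWS-FLI1 array or control replicate 3 was left out (highest adjusted p = 0.13). These genes were named after their values were seen.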
